A study of Mus musculus with 58 samples.

Results

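Microglia without Sgsh were followed from 3 weeks to 8 months of age. Sgsh encodes N-sulfoglucosamine sulfohydrolase, a lysosomal enzyme that removes sulfate groups from heparan sulfate. The comparison rests on 11 libraries, 4 of SgshKO mice at 3 weeks and 7 of SgshKO mice at 8 months, out of 58 bulk RNA-seq libraries in the series. The members are all libraries of these 2 groups by their labels, and genes of chromosomes X and Y were left out of every count. All mice were C57BL/6, and the libraries are polyA RNA of cells sorted from the forebrain as CD11b+, CD45low and CX3CR1+. Wild-type (WT) microglia of the same ages, 3 libraries at 3 weeks and 4 at 8 months, carry no Sgsh knockout and served as the reference for age itself. 2 further SgshKO libraries at 4 months are given as levels only. No injection or drug is named in the titles of these libraries. The labels do not say how Sgsh was disrupted, what the sex of the mice was, or whether each library came from a separate animal, so p-values measure the spread between libraries, which may in part be technical.

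Heparan sulfate is a long sulfated sugar chain that is attached to core proteins at the cell surface and in the matrix, is cut by heparanase, and is then taken apart in lysosomes by a fixed series of sulfatases, glycosidases and an acetyltransferase. When SGSH is missing the chain fragments cannot be cleared, and the human disease is mucopolysaccharidosis IIIA, a lysosomal storage disease of childhood that mainly affects the brain. Microglia are the resident macrophages of the brain. In ageing, demyelination and neurodegeneration they can leave the homeostatic state, marked by genes such as P2ry12 and Tmem119, and take on the disease-associated microglia (DAM) state, marked by genes such as Apoe, Cst7 and Itgax.

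The sort held microglia at both ages. P2ry12, Tmem119, Cx3cr1, Csf1r, Siglech, Fcrls and Sall1, which define microglia, were all detected in each of the 11 libraries, none below 857 CPM (counts scaled to library totals of equal size). Total counts ran from 10648847 to 22067656 at 3 weeks and from 11146412 to 27106584 at 8 months. Transcripts of sex-linked genes split the libraries: Xist exceeded Ddx3y in all 4 SgshKO libraries at 3 weeks and in 3 of the 7 at 8 months, in all 3 WT libraries at 3 weeks and in 0 of the 4 at 8 months. In WT, age and this split cannot be told apart, and the same limit touches every statement on the difference between SgshKO and WT. Neutrophil transcripts were higher in each of the 7 SgshKO libraries at 8 months than in any at 3 weeks, and highest in replicates 3 and 1. Replicate 1 at 3 weeks stood apart in immediate early genes.

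From 3 weeks to 8 months, 4244 of 13839 autosomal genes changed in SgshKO microglia (30.7%) at an adjusted p below 0.05 in edgeR's quasi-likelihood test, and a gene that passed this threshold is called higher or lower below. Of these, 2154 rose (15.6%) and 2090 fell (15.1%). With the deposited TPM (transcript levels scaled by length and library total) falls were the more frequent, 2542 against 1781 rises. The TPM fit also differed in its test and gene filter. With counts of the 3-week and 8-month groups alone there were 2089 rises and 2212 falls. The balance between the directions therefore depends on the processing. With counts, changes of at least 2-fold were more often rises, with 919 genes higher and 248 lower (8.43% together). The median log2 fold change over all genes was 0.02. In bulk samples fewer cells of a type and less RNA per cell cannot be told apart, which holds for each change given here. In WT microglia 1042 genes changed over the same interval (7.53%), 420 of them higher (3.03%) and 622 lower (4.49%), and 1.94% of all genes changed at least 2-fold. The count of 1042 rests on fewer libraries, and it was 694 and 634 genes without WT 3-week replicates 2 and 3. Called or not, 2765 of the 13839 genes (20%) had no overlap between the libraries of the 2 ages in SgshKO. In WT, with fewer libraries, 2809 genes (20.3%) had none, so a lack of overlap is frequent among all genes. The SgshKO and WT comparisons share no library. 210 genes rose in both, 9.75% of those higher in SgshKO and 50% of those higher in WT, and 369 fell in both, 17.7% and 59.3%. The age change itself differed between SgshKO and WT for 1284 genes (9.28%), 828 with a higher change in SgshKO (5.98%) and 456 with a lower one (3.30%). The share of higher changes among these was 64.5% with counts and 50.6% with TPM. It was 56.9% with counts of the 3-week and 8-month groups alone, so this balance too depends on the processing.

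**Figure D1:**
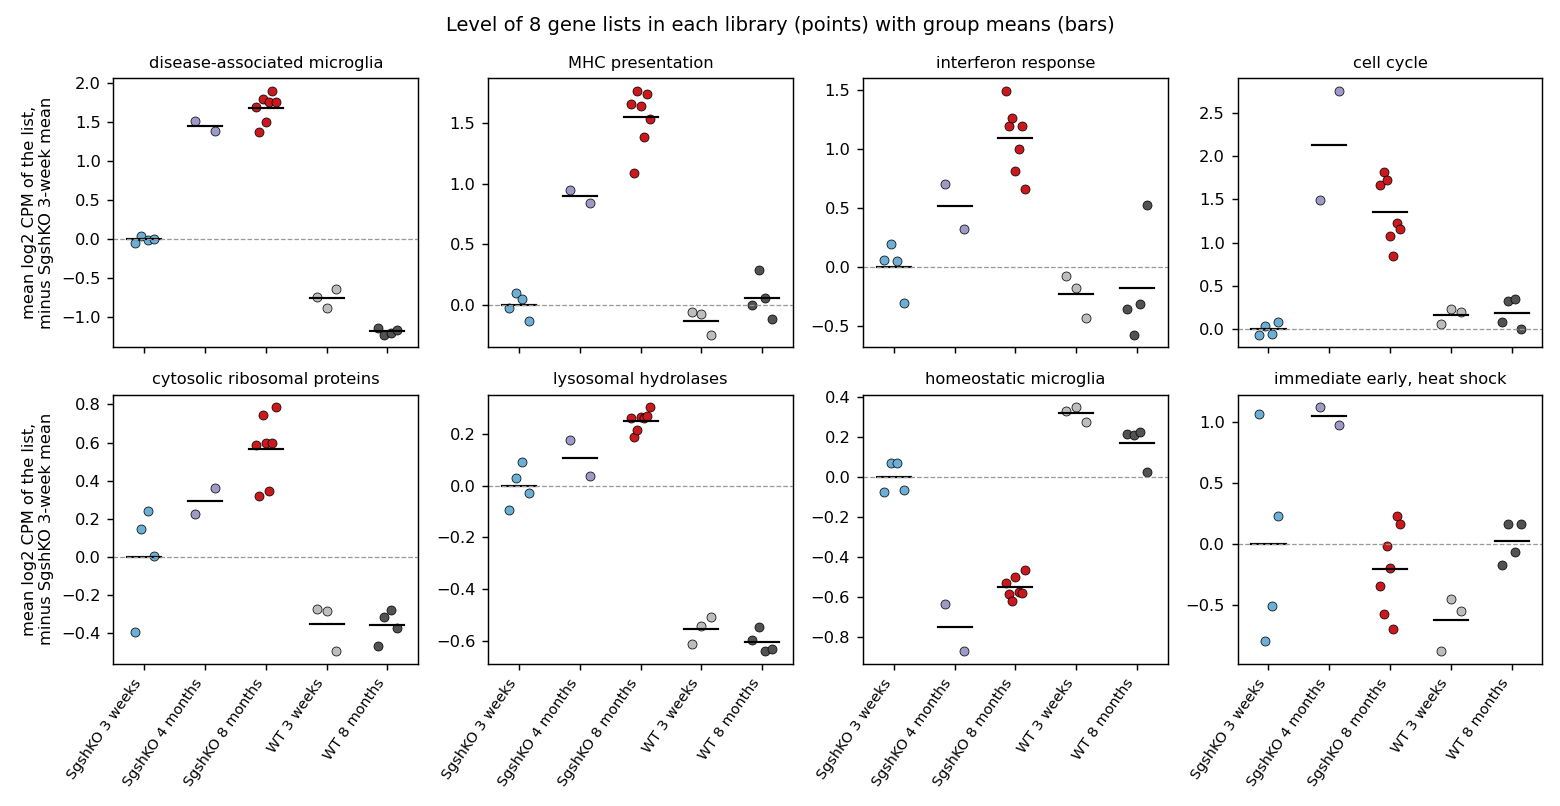
Mean log2 CPM of 8 gene lists in each library (points), with the mean of the 4 SgshKO libraries at 3 weeks set to 0 (dashed line) and group means as bars. For the disease-associated, MHC and cell-cycle lists all 7 SgshKO libraries at 8 months lie above all 4 at 3 weeks, and for the homeostatic list all lie below. In the immediate early panel replicate 1 at 3 weeks is the highest of the 3-week points.

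In the heparan sulfate breakdown pathway, heparanase changed most. Hpse (chr5:100679484-100719716, coordinates of the mouse build mm10 here and below), the endoglucuronidase that cuts heparan sulfate chains, had 12.7, 5.42, 8.71 and 6.14 CPM in the 4 SgshKO libraries at 3 weeks. At 8 months the 7 libraries ran from 155 to 187 CPM, with a median of 168. The groups did not overlap, and the 3-week libraries lay far below the lowest of 8 months. The log2 fold change was 4.34 ± 0.23 (SE), a 20.2-fold rise (edgeR adjusted p = 1.70e-12). At 4 months Hpse stood at 117 and 95.5 CPM. WT microglia had 0.279 to 1.81 CPM at 3 weeks and 0 to 0.277 CPM at 8 months, a fall (log2 fold change -2.96, adjusted p = 0.00758), and the age changes of the genotypes differed by 7.29 on the log2 scale (adjusted p = 1.69e-07).

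Among the enzymes that act after heparanase no called change reached 2-fold. Of 20 tested genes of heparan sulfate and other glycosaminoglycan breakdown, 4 were higher (Hpse, Glb1, Sgsh and Hexa) and 3 lower (Arsb and Sulf2 among them), and the list's median log2 fold change was 0.08. These shares, 20% and 15%, were near those of all genes (15.6% and 15.1%). Naglu, Hgsnat, Idua and Gusb, which cleave or acetylate heparan sulfate before or after SGSH, did not pass the test, with log2 fold changes between -0.07 (Idua) and 0.14 (Naglu). Glb1 (chr9:114401078-114474379), the lysosomal beta-galactosidase, rose from 139, 135, 139 and 138 CPM at 3 weeks to between 239 and 283 CPM at 8 months (log2 fold change 0.91 ± 0.09, edgeR adjusted p = 6.11e-08). The 4 libraries at 3 weeks were nearly equal, and those at 8 months all lay above them. In WT the change of Glb1 was -0.06 and did not pass (adjusted p = 0.835). Arsb, the sulfatase of dermatan and chondroitin sulfate, fell from 1170.0, 1308, 1286 and 1081 CPM to a median of 673 CPM without overlap. Its log2 fold change was -0.85 in SgshKO and -0.86 in WT, and the fall passed in both. Sulf2, an extracellular sulfatase that edits 6-O-sulfate groups, had log2 fold changes of -0.51 in SgshKO and -1.84 in WT (difference 1.32, adjusted p = 3.22e-04). Its call in SgshKO did not hold among the 8-month libraries with Xist alone (adjusted p = 0.235).

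Transcripts of Sgsh were present in every knockout library, so they do not check the genotype labels. Sgsh (chr11:119343489-119355510) had 20.9, 14.9, 16.6 and 23.4 CPM at 3 weeks and 20.1 to 34.7 CPM at 8 months (median 25.8), and the groups overlapped. The log2 fold change was 0.49 ± 0.17 (edgeR adjusted p = 0.0288). This call was lost without SgshKO 3-week replicates 2 or 3 (adjusted p of 0.124 and 0.0882), without 8-month replicates 1 or 5 (0.0566 and 0.0621), among the 8-month libraries with Xist alone (0.135), without the 2 libraries richest in neutrophil transcripts (0.0615), and with the replicate number as a block (0.143). In WT it rose by 0.91 (adjusted p = 0.00517).

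The promoters of Glb1 and Sgsh are shown because the MiT/TFE factors, which switch on lysosomal genes, bind the E-box CACGTG, a palindrome that reads the same on both strands. Sequences are from RefSeq (GRCm38.p6), the 250 bases before the annotated start, 5′ to 3′ on the gene's strand, with the E-box in capitals. It begins 48 bases before the start of Glb1 (chr9:114400828-114401077, plus strand) and 29 before that of Sgsh (chr11:119355511-119355760, minus strand).
Glb1: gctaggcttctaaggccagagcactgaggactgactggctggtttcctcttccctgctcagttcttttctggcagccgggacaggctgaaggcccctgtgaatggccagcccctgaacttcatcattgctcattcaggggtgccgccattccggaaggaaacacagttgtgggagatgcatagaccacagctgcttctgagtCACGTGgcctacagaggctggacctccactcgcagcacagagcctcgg
Sgsh: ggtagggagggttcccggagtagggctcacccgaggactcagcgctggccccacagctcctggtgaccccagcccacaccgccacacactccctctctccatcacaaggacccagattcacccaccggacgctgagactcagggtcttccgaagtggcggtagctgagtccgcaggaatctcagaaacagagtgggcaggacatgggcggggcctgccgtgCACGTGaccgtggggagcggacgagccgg
A promoter of this length was matched for 10585 of the 13839 autosomal genes, and 8.40% of them held CACGTG. The share was 33.3% (5 of 15) for glycosaminoglycan breakdown, 20% (6 of 30) for lysosomal hydrolases and 10.3% (3 of 29) for the DAM list. Lists outside the lysosome had similar shares, 31.25% (5 of 16) for clock genes and 18.75% (3 of 16) for cholesterol synthesis. The Hpse window did not hold these letters. These are matches of letters and not measured binding.

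Genes that build heparan sulfate or carry it were called in both directions, 7 higher and 4 lower of 24 tested, with a median of -0.09. These are 29.2% and 16.7%, against 15.6% and 15.1% of all genes. Cd44 (chr2:102811142-102901665), a receptor for hyaluronan whose splice forms can carry heparan sulfate, had 1.04, 1.66, 3.29 and 1.97 CPM at 3 weeks. It reached 13.01 to 48.8 CPM at 8 months (median 17.6), a log2 fold change of 3.52 ± 0.42 (edgeR adjusted p = 5.77e-07). Replicate 3, the library with most neutrophil transcripts, was the highest. Xylt1, the xylosyltransferase that starts proteoglycan chains, went from 0.665 to 2.04 CPM to 8.13 to 17.6 CPM (log2 fold change 3.21 ± 0.34). Neither gene was called in WT (adjusted p of 0.225 and 0.957). Gpc1, the cell-surface proteoglycan glypican-1, had the largest rise of the list, from 0.0475 to 0.387 CPM at 3 weeks to 0.413 to 11.7 CPM at 8 months, and its highest values were in replicates 3 and 1. Hs3st2, a 3-O-sulfotransferase, had the largest fall, from 0.585 to 0.951 CPM to 0 in all but 1 library at 8 months. It also fell in WT (-3.22, adjusted p = 0.00897).

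Most DAM genes rose. Of 39 tested, 35 were called higher and 0 lower (89.7% against 15.6% of all genes), with a median log2 fold change of 1.43. The 4 others were Dkk2, Timp2, Hif1a and Baiap2l2. In WT microglia 1 DAM gene rose and 11 fell over the same ages, with a median of -0.24, and the age change differed between the genotypes for 35 of the 39, all with the higher change in SgshKO. The count of 35 was the same among the 8-month libraries with Xist, and without the 2 libraries with most neutrophil transcripts.

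The largest DAM changes came from genes that were low at 3 weeks. Mamdc2, a MAM-domain proteoglycan, had 0.0475 to 0.194 CPM at 3 weeks and 5.89 to 20.2 CPM at 8 months (log2 fold change 6.57 ± 0.50, edgeR adjusted p = 4.63e-10). Colec12, a scavenger receptor, went from 0 to 0.581 to 3.03 to 8.81 CPM. Spp1 (chr5:104435111-104441053), which encodes the secreted protein osteopontin, had 4.08, 4.23, 3.19 and 3.87 CPM at 3 weeks and 42.1 to 162 CPM at 8 months (median 91.2). The 3-week libraries were close to each other, whereas those at 8 months spread more widely, with replicate 2 the highest and replicate 4 the lowest. Gpnmb, a glycoprotein of late endosomes, had 4.84, 0.380, 0 and 0.658 CPM at 3 weeks, with replicate 1 above the others, and 16.6 to 40.1 CPM at 8 months. Its log2 fold change was 3.97 ± 0.63 in SgshKO and -3.76 in WT.

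Other DAM genes were already expressed at 3 weeks and rose from there. Cst7 (chr2:150570415-150578944), which encodes cystatin F, an inhibitor of lysosomal cysteine proteases, had 20.7, 25.4, 30.2 and 24.3 CPM at 3 weeks. At 8 months it had 168 to 228 CPM (median 185), a 7.79-fold rise (log2 fold change 2.96 ± 0.13, edgeR adjusted p = 6.84e-14). The groups lay far apart, and the 2 libraries at 4 months stood at 204 and 167 CPM. Axl (chr7:25756500-25788733), a receptor tyrosine kinase that binds Gas6 on dying cells, had 54.7, 39.2, 45.5 and 35.95 CPM at 3 weeks and 352 to 659 CPM at 8 months (median 464, log2 fold change 3.43 ± 0.21). Itgax, the integrin CD11c, rose from 37.2 to 59.7 to 177 to 494 CPM, and Clec7a, the beta-glucan receptor dectin-1, from 52.8 to 76.2 to 246 to 438 CPM. Lpl, lipoprotein lipase, had a log2 fold change of 1.72 in SgshKO and fell in WT (-2.02, adjusted p = 4.17e-05). The difference in the age change passed for each of these 5 genes, with values from 2.90 (Itgax) to 4.27 (Clec7a).

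Apoe (chr7:19696244-19699188), the lipid carrier that microglia secrete, had 1400.2, 3154, 3703 and 2393 CPM at 3 weeks, where replicate 1 was the lowest, and 4667 to 9708 CPM at 8 months (log2 fold change 1.43 ± 0.21, edgeR adjusted p = 1.23e-05). Trem2, the lipid-sensing receptor on which the later part of the DAM state depends in mouse models, changed by 0.55 ± 0.14, from 667, 1155, 1203 and 977 CPM to a median of 1508 CPM, and its groups overlapped. For Trem2 the difference from WT did not pass (adjusted p = 0.360).

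**Figure D2:**
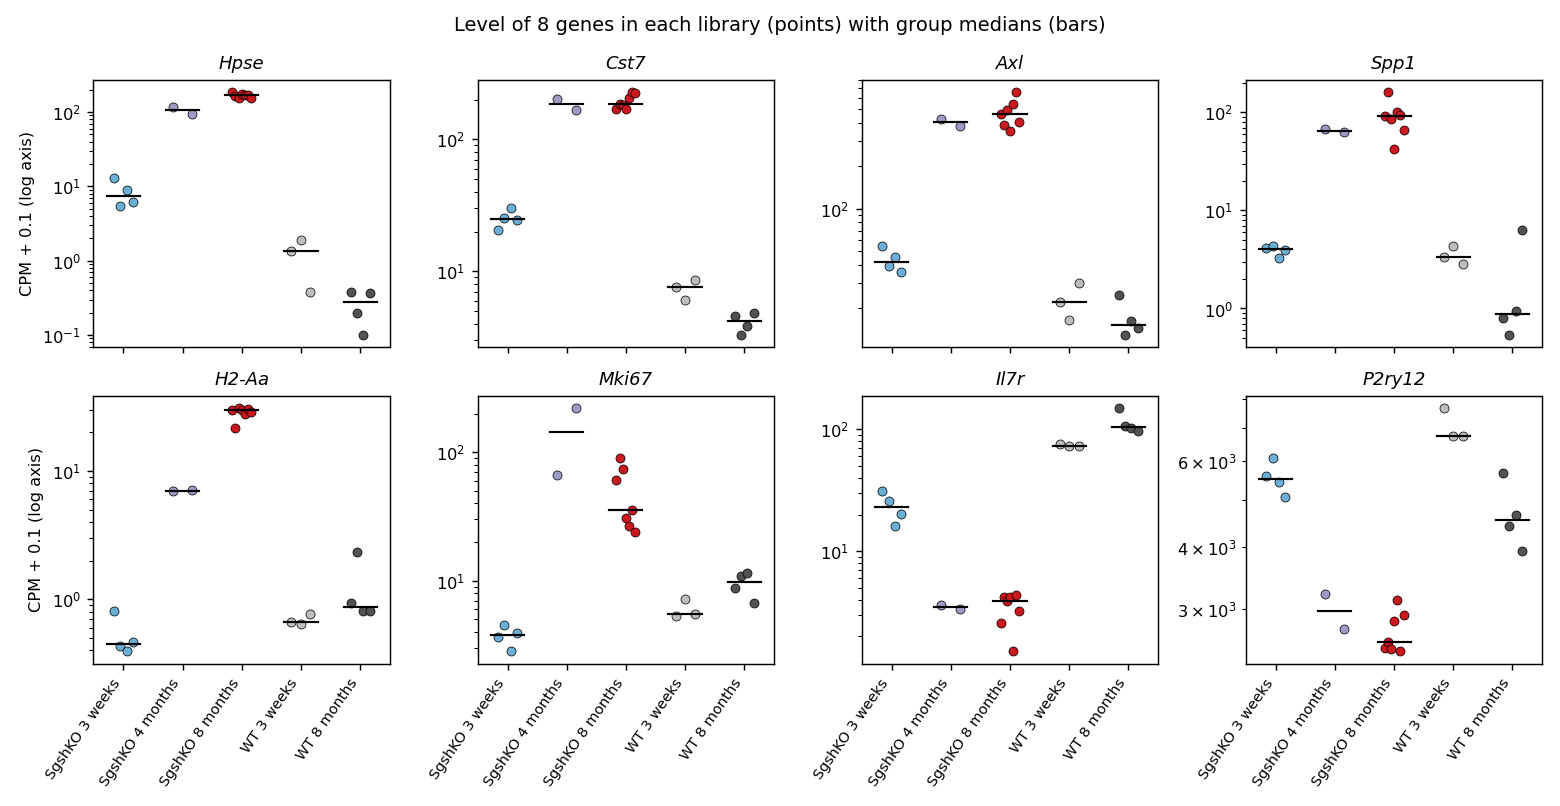
CPM of 8 genes in each library (points, log axis, 0.1 added), with group medians as bars. For Hpse, Cst7, Axl, Spp1, H2-Aa and Mki67 the 7 SgshKO libraries at 8 months lie above the 4 at 3 weeks, and for Il7r and P2ry12 below. The 2 SgshKO libraries at 4 months lie with or close to those at 8 months for Cst7, Axl and Il7r, and between the ages for Hpse and H2-Aa.

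Homeostatic genes fell, by less than the DAM genes rose. Of 35 tested, 27 were called lower and 0 higher (77.1% against 15.1% of all genes), with a median log2 fold change of -0.41. In WT 11 fell and 2 rose, and the age change differed for 14, all lower in SgshKO. The summed list in SgshKO ran from 88928 to 99928 CPM at 3 weeks and from 66721 to 76208 CPM at 8 months. It was 58071 and 67253 CPM in the 2 libraries at 4 months. P2ry12 (chr3:59216271-59262985), the purinergic receptor that guides microglial processes, had 5574, 6073, 5422 and 5065 CPM at 3 weeks and 2452 to 3122 CPM at 8 months (median 2558). All 7 later libraries lay below the 4 earlier ones, and the log2 fold change was -1.04 ± 0.09 (edgeR adjusted p = 4.26e-09). It also fell in WT (-0.59), and the difference did not pass (adjusted p = 0.0538). The difference lay near the threshold, and it passed with DESeq2 (-0.44, adjusted p = 0.0215), with TPM (adjusted p of 0.0377 and 0.0406), with the replicate block (0.0308) and without WT 8-month replicate 4 (0.0114). Cx3cr1, the fractalkine receptor used in the sort, fell from 7364 to 7809 to 4305 to 4793 CPM (log2 fold change -0.75). Csf1r, the receptor on which microglial survival depends, had a log2 fold change of -0.64. Tmem119, a microglial membrane protein, fell less (-0.33).

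Il7r (chr15:9506159-9529876), the interleukin-7 receptor, fell most of the homeostatic list. It had 31.01, 25.8, 15.97 and 20.3 CPM at 3 weeks and 1.41 to 4.24 CPM at 8 months (median 3.82), a log2 fold change of -2.82 ± 0.20 (edgeR adjusted p = 1.19e-10). WT microglia had more at both ages, 72.8 to 76.1 and 96.5 to 149 CPM, with no called change. Crybb1, which encodes a crystallin, fell from 229, 338, 419.9 and 335 CPM to a median of 114 CPM, and the ages did not overlap.

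Microglial transcription factors fell more often than they rose, 13 lower and 3 higher of 32, with a median of -0.24. These are 40.6% and 9.38%, against 15.1% and 15.6% of all genes. In WT 6 fell and 4 rose. The age change in SgshKO was lower than in WT for 4 of the 32 and higher for 1, and for the rest the difference did not pass. Sall1 (chr8:89027243-89044162), which maintains microglial identity, went from 1712, 1790.4, 1762 and 1715 CPM to 857 to 1103 CPM (log2 fold change -0.85 ± 0.08, edgeR adjusted p = 3.66e-08). The fall in WT was -0.67, and the genotypes did not differ past the threshold (adjusted p = 0.480). Mycl, a Myc family member, fell in SgshKO from 22.1 to 30.02 to 3.85 to 15.2 CPM (log2 fold change -1.59) and rose in WT (1.07). Etv4, an ETS factor, rose by 1.74 from 2.85 to 5.71 to 10.5 to 22.97 CPM. Runx1, a regulator of myeloid development, rose by 0.61 (adjusted p = 0.0387), and this call was lost without any single 3-week library and without any single 8-month library other than replicates 3 and 7, with adjusted p up to 0.0897. In edgeR it was also lost among the 8-month libraries with Xist alone (adjusted p = 0.272) and with the Ddx3y minus Xist balance as a covariate (0.170). With TPM and a pseudocount of 1 in limma it did not pass either (0.138).

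**Figure D3:**
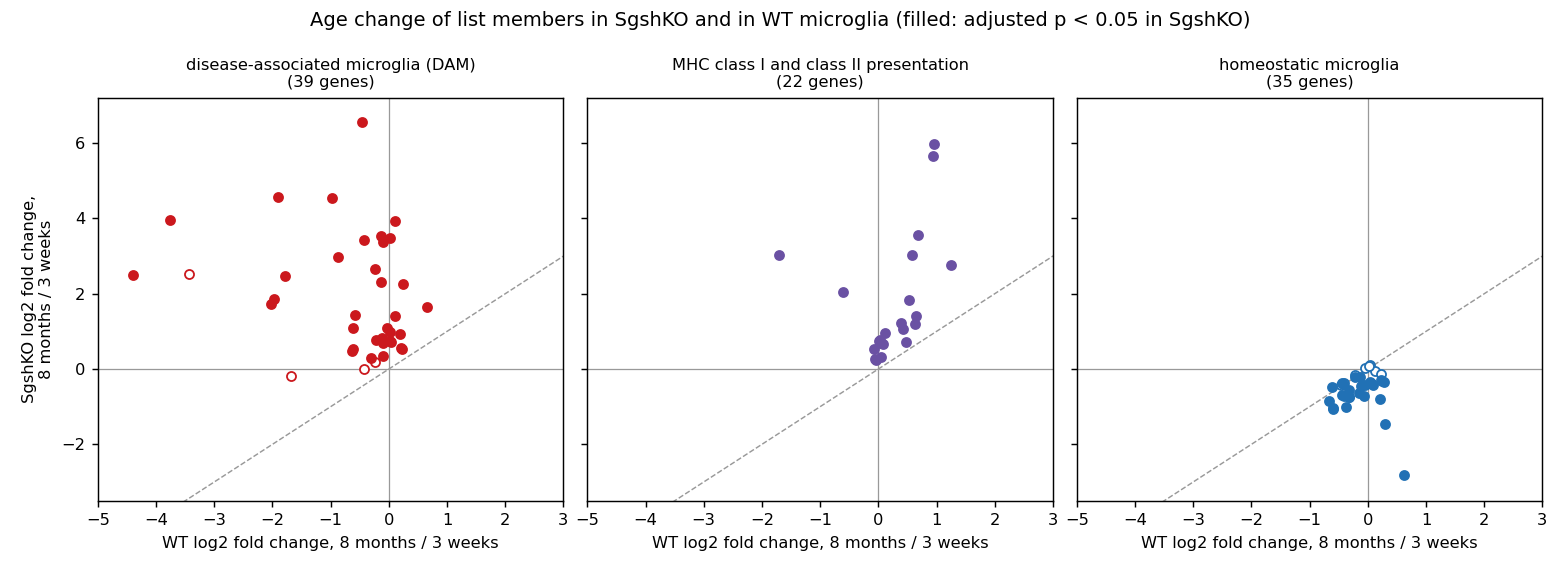
Age change (log2 fold change, 8 months over 3 weeks) in SgshKO (vertical) against WT microglia (horizontal) for 39 disease-associated, 22 MHC and 35 homeostatic genes, filled where called in SgshKO. The dashed line marks equal change. All DAM genes but Baiap2l2 and Hif1a lie above 0 in SgshKO, all 22 MHC genes lie above the line of equal change, and H2-Aa and H2-Eb1 are the highest of them.

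Lysosomal genes split by class. Of 37 hydrolases and activators 19 rose and 4 fell (51.4% and 10.8%), with a median of 0.17. Of 43 membrane proteins and V-ATPase subunits 11 rose and 6 fell (25.6% and 14.0%), with a median of 0.01. Among all genes the shares were 15.6% and 15.1%. Acp5 (chr9:22126727-22131865), tartrate-resistant acid phosphatase, had 8.26, 9.27, 12.9 and 10.4 CPM at 3 weeks and 27.4 to 46.01 CPM at 8 months (log2 fold change 1.96 ± 0.27, edgeR adjusted p = 4.03e-06). In WT it fell (-2.77, adjusted p = 2.44e-04). Several cathepsins, proteases of the lysosome, rose. Ctsz rose from 881, 1315, 1413 and 1134 to a median of 2299 CPM, Ctsh from 209, 298, 279 and 248 to 473 CPM and Ctss from 3554, 4318, 4119 and 3847 to 6998 CPM. For all 3 genes the ages did not overlap, and the difference from WT passed for each, at 0.72, 0.82 and 0.75. Acp2, another acid phosphatase, fell (-0.44).

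Among the membrane genes, Cd63, a tetraspanin of late endosomes, rose from 92.04, 146, 147 and 129 to 188 to 277 CPM (log2 fold change 0.97 ± 0.12). Atp6v0a2, a subunit of the proton pump that acidifies lysosomes and Golgi, fell from 259.8, 298, 289 and 252 CPM to a median of 151 CPM. Its log2 fold change was -0.78 in SgshKO and 0.19 in WT (difference adjusted p = 9.57e-04). The alternative subunit Atp6v0d2, known from osteoclasts and macrophages, was at 0 to 0.219 CPM at 3 weeks and 0.920 to 1.58 CPM at 8 months, and 0 in all 4 WT libraries at 8 months. These levels are low, and the 3-week libraries held 4 counts in all. Mcoln3, a lysosomal calcium channel, had 2 counts at 3 weeks and 0.271 to 2.15 CPM at 8 months, 39.4 times the 3-week level (95% interval from counting error alone, 10.7 to 328).

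**Figure D4:**
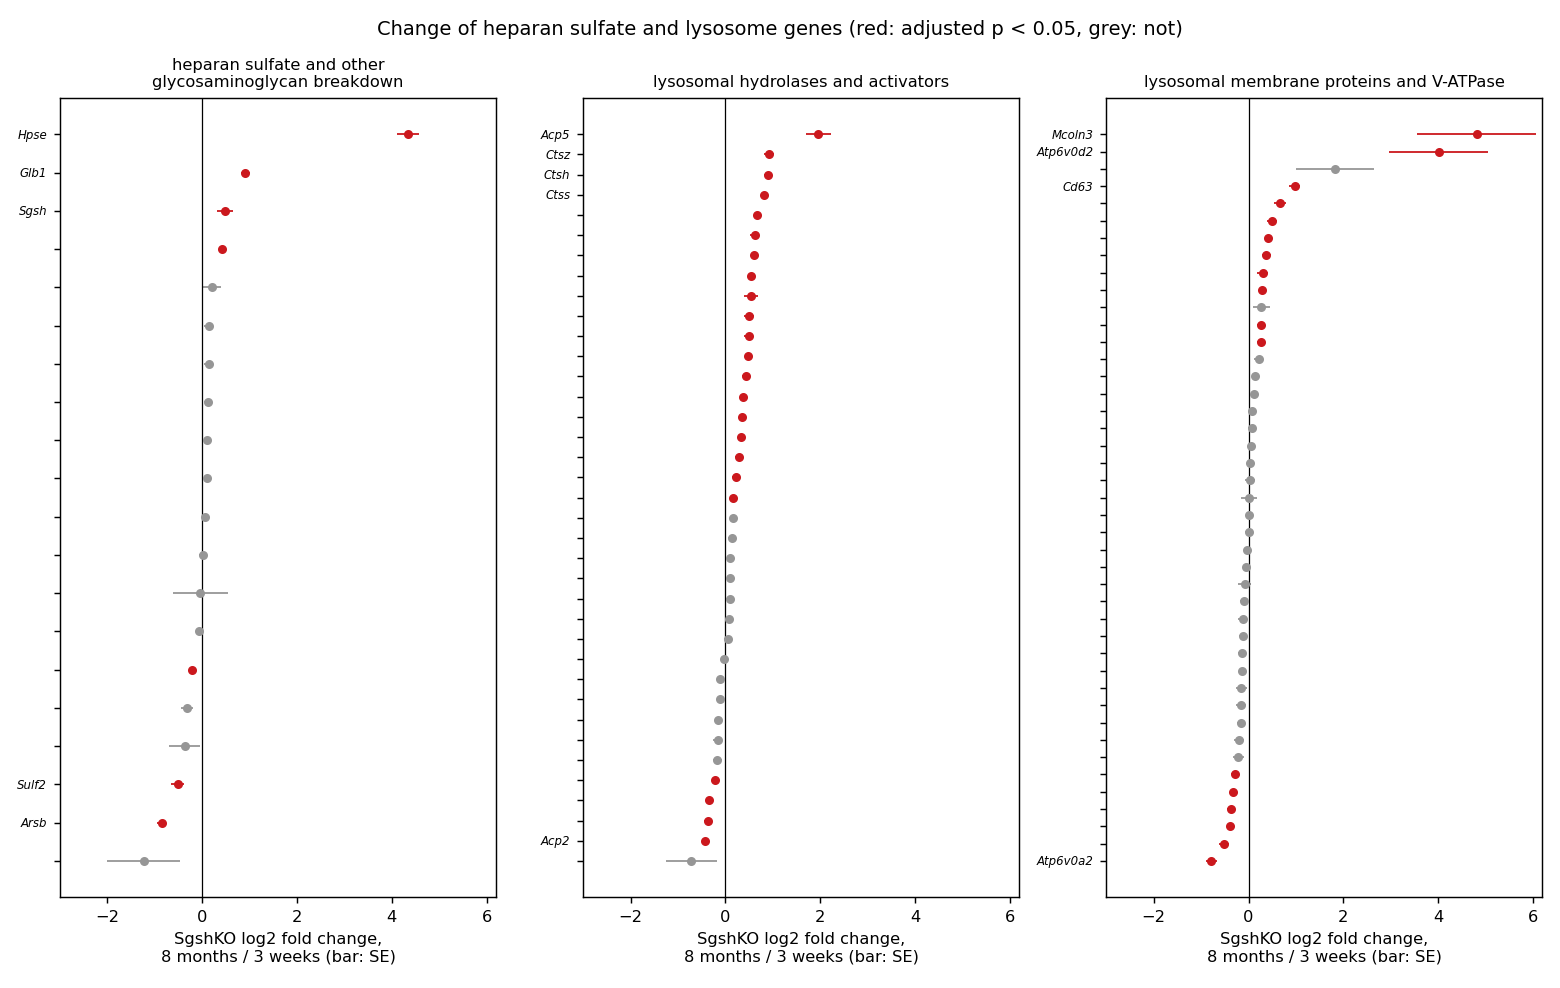
Log2 fold change in SgshKO from 3 weeks to 8 months with its SE for each tested gene of 3 lists, red where called, with names beside the main genes described in the text. Hpse (4.34) stands apart in the left panel. The middle panel leans to the right, with 19 red points above 0 and 4 below, and the right panel leans less, with 11 and 6. Mcoln3 and Atp6v0d2, with few counts at 3 weeks, have wide error bars.

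The MiT/TFE transcription factors, which turn on lysosome and autophagy genes when held less by mTORC1 and the folliculin complex, differed in their own transcripts. Mitf (chr6:97807058-98021358) rose from 73.2, 62.5, 53.1 and 58.97 CPM to 73.6 to 101 CPM without overlap (log2 fold change 0.50 ± 0.09, edgeR adjusted p = 1.42e-04). The difference of Mitf from WT did not pass in the main fit. Without SgshKO 3-week replicate 1 it did (0.45, edgeR adjusted p = 0.0395). Tfeb did not pass (-0.06, adjusted p = 0.724), at 62.2 to 69.3 and 50.2 to 69.8 CPM. Tfec (-0.48, 1.61 to 3.00 and 0.901 to 3.61 CPM) and Flcn, which encodes folliculin (-0.16), did not pass either. Of the 22 factors and nutrient-sensing regulators 5 rose and 2 fell (22.7% and 9.09%, against 15.6% and 15.1% of all genes). Rragd, a Rag GTPase and known target of these factors, had 23.7, 14.7, 15.6 and 16.8 CPM at 3 weeks and 38.9 to 68.98 CPM at 8 months (log2 fold change 1.69 ± 0.21; difference from WT 2.40, adjusted p = 9.14e-05). Lamtor2, part of the Ragulator scaffold, rose by 0.96, and Rptor, the mTORC1 subunit raptor, fell (-0.53). Autophagy genes were near the background, 5 higher and 3 lower of 31 (16.1% and 9.68%). Gabarapl1, an Atg8 family member, rose by 1.02, from 24.8 to 29.9 to 42.9 to 68.1 CPM, and the kinase gene Ulk2 fell (-0.47).

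Genes of lipid handling rose more often than not, 15 higher and 4 lower of 28 with a median of 0.45, and Apoe and Lpl above belong to this list. These are 53.6% and 14.3%, against 15.6% and 15.1% of all genes. Ch25h, which makes 25-hydroxycholesterol, went from 0.0950 to 0.871 to 2.62 to 10.3 CPM, Fabp5, a fatty acid carrier, from 0.142 to 1.26 to 5.30 to 11.1 CPM, and Dgat2, which makes triglycerides for lipid droplets, from 0.238 to 1.61 to 4.25 to 11.98 CPM. Each of the 3 was low at 3 weeks and higher in all 7 libraries at 8 months. Lrp1, an endocytic receptor for ApoE, fell from 4199, 4183, 4455 and 4161 CPM to a median of 2902 CPM, and the cholesterol exporter gene Abca1 fell (-0.45). Of 23 cholesterol synthesis genes 1 was higher and 4 lower (4.35% and 17.4%, against 15.6% and 15.1% of all genes). Sqle, squalene epoxidase, had log2 fold changes of -0.88 in SgshKO and -1.22 in WT. Its call in SgshKO did not hold among the 8-month libraries with Xist alone (adjusted p = 0.0900).

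Iron genes moved in both directions, 6 higher and 5 lower of 14 (42.9% and 35.7%, against 15.6% and 15.1% of all genes). Fth1 (chr19:9982646-9985111), the ferritin heavy chain that stores iron, had 698, 765, 873 and 799.8 CPM at 3 weeks and 1889.6 to 2296 CPM at 8 months (log2 fold change 1.41 ± 0.08, edgeR adjusted p = 3.18e-12). Ftl1, the light chain, rose by 0.78. Tfrc, the transferrin receptor that imports iron, fell from 30.1 to 44.1 to 22.5 to 28.7 CPM (-0.53). For Fth1 and Ftl1 the difference from WT passed (1.30 and 0.81), and for Tfrc it did not (adjusted p = 0.135, and 0.0318 without WT 8-month replicate 2). The 6 higher genes include Lcn2, a neutrophil transcript.

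Antigen presentation genes rose together, and all 22 tested genes of MHC class I and class II presentation were called higher (100% against 15.6%), with a median of 1.14. In WT 3 of the 22 rose, with a median of 0.25, and the age change differed for 11, all higher in SgshKO. Without the 2 libraries richest in neutrophil transcripts 18 of the 22 were called. The class II genes, which present peptides to CD4 T cells, rose from low levels. H2-Aa (chr17:34282751-34287771) had 0.712, 0.333, 0.290 and 0.365 CPM at 3 weeks and 21.8 to 30.8 CPM at 8 months (median 29.7), a log2 fold change of 5.97 ± 0.32 (edgeR adjusted p = 1.70e-12). The 8-month libraries were alike but for replicate 2, the lowest, and the 4-month libraries, at 6.85 and 6.96 CPM, lay between. H2-Eb1 (chr17:34305867-34316674), the beta chain of the class II molecule I-E, went from 0.475, 0.570, 0.387 and 0.219 to 14.2 to 29.2 CPM (log2 fold change 5.65 ± 0.52). H2-Ab1 rose from 3.29 to 3.42 to 14.8 to 40.1 CPM and Cd74, the invariant chain, from 25.1, 28.3, 34.1 and 24.3 to 82.9 to 147 CPM. Ciita, the master regulator of class II genes, was at 0.0731 to 0.484 and 0.0903 to 3.30 CPM, and replicates 2 and 7 at 8 months lay within the 3-week range.

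Class I genes, which present to CD8 T cells, were expressed at both ages and rose. H2-D1 had 395, 412, 453 and 344 CPM at 3 weeks and 1053 to 1648 CPM at 8 months (log2 fold change 1.84 ± 0.12), H2-K1 rose by 1.23, and B2m, the shared light chain, by 0.75. Nlrc5, the class I transactivator, rose from 12.5 to 23.3 to 36.7 to 62.3 CPM. H2-Q7 rose as well (3.56), but the H2-Q genes are near-identical copies whose reads the counting may split, so its value is uncertain.

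The promoters of H2-Aa and H2-Eb1 are shown because both genes rose together, and because the last element of the class II promoter box, the Y box, contains an inverted CCAAT. Capitals mark matches to it on either strand in the 250 bases before the RefSeq start (H2-Aa, chr17:34287824-34288073, minus strand; H2-Eb1, chr17:34305617-34305866, plus strand). For H2-Aa the match, which is inverted, begins 48 bases before the RefSeq start, which lies 52 bases from the start in the deposited table. Of the 2 in H2-Eb1, the inverted match begins 59 bases before the start, and the other, CCAAT on the gene's strand, begins 35 bases before it.
H2-Aa: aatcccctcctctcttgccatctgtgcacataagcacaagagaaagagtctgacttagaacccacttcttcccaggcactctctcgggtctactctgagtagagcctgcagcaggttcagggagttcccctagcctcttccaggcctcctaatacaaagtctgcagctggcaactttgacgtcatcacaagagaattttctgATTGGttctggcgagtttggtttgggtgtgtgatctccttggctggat
H2-Eb1: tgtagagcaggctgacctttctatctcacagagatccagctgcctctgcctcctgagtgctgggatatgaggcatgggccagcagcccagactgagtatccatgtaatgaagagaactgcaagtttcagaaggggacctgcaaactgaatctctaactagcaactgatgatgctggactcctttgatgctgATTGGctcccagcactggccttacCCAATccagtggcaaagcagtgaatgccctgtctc
CCAAT on either strand was in 15 of 17 MHC promoters (88.2%), against 36.1% of all promoters. The motif has 5 letters, and a match is frequent in any window of this length.

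Interferon-response genes rose in SgshKO, 23 higher and 1 lower of 36, with a median of 1.23. These are 63.9% and 2.78%, against 15.6% and 15.1% of all genes. In WT 1 rose and 3 fell, and the age change differed for 13 of the 36, all higher in SgshKO. At 8 months the summed list ran from 1340 to 2075 CPM in SgshKO and from 1020.1 to 1959 CPM in WT, so these ranges overlapped. Ifi207 (chr1:173723428-173741809), a member of the DNA-sensing p200 family, had 6.84, 3.95, 3.39 and 2.27 CPM at 3 weeks and 31.1 to 64.6 CPM at 8 months (median 50.5), a log2 fold change of 3.54 ± 0.40 (edgeR adjusted p = 3.40e-07). Ifi204 of the same family went from 3.58 to 6.56 to 30.7 to 77.9 CPM, Ifi27l2a, an interferon-induced gene, from 1.46 to 2.57 to 15.3 to 33.9 CPM, and Ifitm3, which blocks virus entry, from 4.45 to 5.85 to 21.3 to 46.7 CPM. The ages did not overlap for any of the 4, and the difference from WT passed for each (2.54 to 3.06). The p200 genes are close copies of each other, so the split between Ifi207 and Ifi204 is uncertain. Irgm2 (chr11:58214977-58222783), an immunity-related GTPase, was the 1 gene called lower, from 97.3, 113, 103 and 91.8 CPM to 61.2 to 82.6 CPM (-0.43 ± 0.08). In WT it fell further (-2.02, adjusted p = 2.93e-12), from 135 to 141 to 31.1 to 41.5 CPM.

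The promoters of Ifi207 and Irgm2, which moved in opposite directions in SgshKO, both hold the interferon-stimulated response element searched here, in capitals, which is GAAA followed by any 2 bases and GAAA again, on either strand (Ifi207, chr1:173741810-173742059, minus strand, 41 bases before the start; Irgm2, chr11:58214727-58214976, plus strand, 64 bases before it).
Ifi207: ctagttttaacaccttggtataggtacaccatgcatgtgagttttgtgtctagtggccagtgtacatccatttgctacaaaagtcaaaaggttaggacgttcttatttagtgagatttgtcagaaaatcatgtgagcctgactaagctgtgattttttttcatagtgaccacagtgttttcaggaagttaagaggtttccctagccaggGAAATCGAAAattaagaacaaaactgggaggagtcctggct
Irgm2: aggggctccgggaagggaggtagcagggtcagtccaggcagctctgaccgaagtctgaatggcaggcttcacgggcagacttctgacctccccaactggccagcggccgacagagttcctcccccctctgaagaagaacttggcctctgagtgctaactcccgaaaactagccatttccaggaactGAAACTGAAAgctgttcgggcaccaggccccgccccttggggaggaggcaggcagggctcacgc
It was found in 17 of the 28 interferon genes with a promoter entry (60.7%), in 3 of 17 MHC genes (17.6%), in 2 of 29 DAM genes (6.90%) and in 2.78% of all promoters.

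Complement and cytokine genes rose in part. Of 15 complement genes 8 rose and 2 fell (53.3% and 13.3%, against 15.6% and 15.1% of all genes). The age change differed from WT for 3 of the 15, all higher in SgshKO. C3 (chr17:57203967-57228136), the central complement protein, had 7.27, 4.94, 3.19 and 7.01 CPM at 3 weeks and 34.5 to 187 CPM at 8 months (median 72.4, log2 fold change 3.87 ± 0.45, edgeR adjusted p = 5.30e-07), highest in replicate 3. C4b went from 24.6, 18.2, 23.4 and 13.5 to a median of 81.5 CPM, and replicate 2 at 8 months, at 643 CPM, stood far above the rest. Without that library its log2 fold change was 2.36 (adjusted p = 1.30e-04) in place of 3.18. For C4b the difference from WT did not pass in the main fit, though it did under alternatives such as no filter on low counts (edgeR adjusted p = 0.00604). C2, the protease of the classical pathway, rose by 2.54, and of the anaphylatoxin receptor genes C5ar1 rose (1.01) and C5ar2 fell (-0.45). The call of C5ar1 did not hold among the 8-month libraries with Xist alone (adjusted p = 0.0773).

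Of 24 chemokines and cytokines 16 rose and 1, Tgfb1 (-0.31), fell, with a median of 1.17. These are 66.7% and 4.17%, against 15.6% and 15.1% of all genes. In WT 3 rose and 3 fell, and the age change differed for 5 of the 24, all higher in SgshKO. The summed list stood higher at 4 months, at 3064 and 3613 CPM, than at 8 months, at 1893 to 2625 CPM. The call of Tgfb1 was lost without 3-week replicate 3 (adjusted p = 0.0556). Tnf (chr17:35199367-35202007) had 14.8, 7.70, 8.42 and 8.48 CPM at 3 weeks and 32.8 to 71.6 CPM at 8 months (median 51.7, log2 fold change 2.35 ± 0.29). It also rose in WT (1.27, adjusted p = 0.0284), and the difference of 1.08 did not pass (adjusted p = 0.141). Without WT 8-month replicate 4 the difference was 1.63 and passed (adjusted p = 0.00254), as it did with no filter on low counts (1.08, adjusted p = 0.0329). That library stood apart among WT libraries, with a sum of interferon-response genes of 1959 CPM against 1020.1 to 1058 CPM in the other 3 at 8 months. Il1rn, the interleukin-1 receptor antagonist, went from 0.713 to 1.04 to 6.47 to 18.1 CPM. Its difference from WT did not pass in the main fit, though it did under alternatives such as DESeq2 (adjusted p = 0.0146). Cxcl14 had 3 counts in the 3-week libraries together and 2.63 to 8.73 CPM at 8 months, 115 times the 3-week level (95% interval from counting error alone, 39.1 to 558).

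Phagocytic and immune surface receptors moved both ways, 12 higher and 8 lower of 28 (42.9% and 28.6%, against 15.6% and 15.1% of all genes). Besides Axl, Clec7a and Trem2 above, Msr1, a scavenger receptor, rose from 1.16 to 2.52 to 5.07 to 10.9 CPM without overlap (log2 fold change 1.79 ± 0.30). Gas6, the ligand of Axl, went the opposite way to its receptor. It fell from 246, 261, 338 and 291 CPM to a median of 129 CPM (log2 fold change -0.92 ± 0.15, edgeR adjusted p = 5.36e-05), and replicate 2 at 8 months, at 248 CPM, lay within the 3-week range. Gas6 also fell in WT (-0.64, adjusted p = 0.0350). Cd180, a Toll-like receptor relative, fell from 475 to 551 to 278 to 353 CPM.

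Cell-cycle transcripts were more abundant at 8 months. Of 41 tested, 30 were higher and 0 lower (73.2% against 15.6%), with a median of 1.87. In WT 0 rose and 1 (Cdk1) fell, and the age change differed for 16, all higher in SgshKO. Mki67 (chr7:135689788-135716379), which coats mitotic chromosomes, had 3.56, 4.42, 2.71 and 3.80 CPM at 3 weeks and 23.9 to 90.7 CPM at 8 months (median 35.4), a log2 fold change of 3.73 ± 0.40 (edgeR adjusted p = 1.43e-07). WT libraries had 5.19 to 7.10 and 6.63 to 11.4 CPM. Top2a, the topoisomerase of S phase to mitosis, went from 1.85, 2.47, 3.48 and 2.78 to 12.8 to 42.5 CPM. Ube2c, Bub1 and E2f8, which act in mitotic exit, the spindle checkpoint and S phase, were at 1 CPM or less in the 3-week libraries and at medians of 3.30, 3.46 and 4.88 CPM at 8 months. Among the 11 that did not pass were Cdk1 (0.14), Pcna (0.19) and Mcm2 (0.35).

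Promoters of cell-cycle genes often hold several CCAAT boxes, and Top2a, shown with them in capitals on either strand, has 6 (chr11:99024190-99024439, minus strand).
Top2a: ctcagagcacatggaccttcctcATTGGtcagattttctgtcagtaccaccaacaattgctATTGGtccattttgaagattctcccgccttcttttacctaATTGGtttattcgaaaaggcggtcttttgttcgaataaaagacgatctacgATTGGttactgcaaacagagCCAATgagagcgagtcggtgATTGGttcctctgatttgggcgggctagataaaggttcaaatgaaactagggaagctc
CCAAT was in 25 of 34 cell-cycle promoters (73.5%) against 36.1% of all. It was also in 12 of 16 cholesterol synthesis promoters (75%) and 11 of 16 clock promoters (68.75%), lists with called genes in both directions.

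Transcripts of neutrophils, short-lived granulocytes that are known to carry more CD45 than microglia, were higher at 8 months as well. 13 of 14 neutrophil markers were called higher, and the exception was Csf3r, which microglia also express (982 to 1220.1 and 1102 to 1282 CPM). Summed without Csf3r, the markers took 2.03 to 31.5 CPM at 3 weeks, 443 to 5989.9 CPM at 8 months, and 2.12 to 4.16 CPM in WT at 8 months. The 2 SgshKO libraries at 4 months had 3077 and 15064 CPM, so the level did not rise steadily with age. The library with 15064 CPM, replicate 2, held both Ddx3y (131 CPM) and some Xist (19.2 CPM). Whether that library is a mixture was not tested. S100a8 (chr3:90669071-90670034), a subunit of the antimicrobial protein calprotectin, had 1.85, 0.428, 0.194 and 4.60 CPM at 3 weeks and 66.7 to 985 CPM at 8 months (median 132). Elane and Mpo, granule genes of neutrophil precursors, were at 0 or near 0 in most libraries, and Elane had counts only in replicates 1 and 3 at 8 months among these 11. Without those 2 libraries neither was called (adjusted p = 0.503 for Mpo, and Elane had no count left). Cell-cycle genes summed to 218 to 249.8 CPM at 3 weeks, 532 and 1197 CPM in the 2 libraries at 4 months, and 366 to 663 CPM at 8 months. Replicate 2 had the highest cell-cycle sum (663 CPM) with 861 CPM of neutrophil markers. Replicates 3 and 1, with the most neutrophil transcripts, had the next highest cell-cycle sums, 579 and 543 CPM. Replicates 4 to 7 had 366 to 424 CPM of cell-cycle genes. Among them replicate 6, with the fewest neutrophil transcripts of the 7 (443 CPM, above every library at 3 weeks), had 419 CPM. Without replicates 1 and 3, 28 of the 41 cell-cycle genes were called higher.

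**Figure D5:**
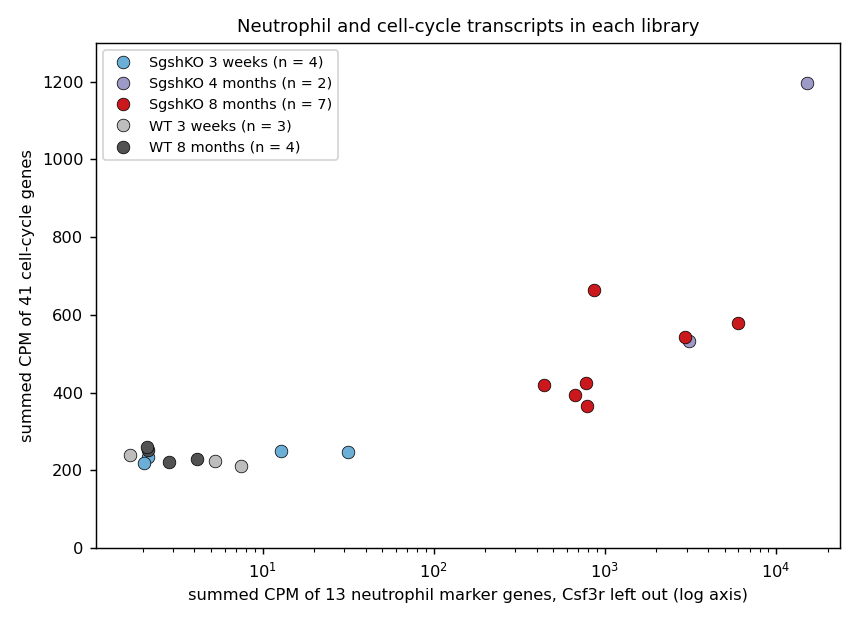
Summed CPM of 41 cell-cycle genes against summed CPM of 13 neutrophil markers (log axis) in each library. The SgshKO libraries at 8 months lie between 443 and 5990 CPM of neutrophil markers and between 366 and 663 CPM of cell-cycle genes, apart from every library at 3 weeks and every WT library shown. One of the SgshKO libraries at 4 months, replicate 2, which held both Ddx3y and some Xist, is the highest on both axes.

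The 12 largest rises among called genes with a mean of at least 5 CPM at 8 months and no overlap were genes known from neutrophils and monocytes. Retnlg had 0 counts in the 4 libraries at 3 weeks and 1.13 to 34.3 CPM at 8 months, at least 308-fold higher when the 3-week group is set at 3 counts in all. Mmp8, Padi4, Ifitm6 and Ly6c2 had 1 to 3 counts at 3 weeks, and Mmp8, a neutrophil collagenase, was at 674 times the 3-week level (95% interval from counting error alone, 186 to 5567). Mmp9, Lcn2, Cd177, S100a9, Ltf, S100a8 and Anxa1, which encode further proteins of neutrophil granules, surface or cytosol, completed the 12. Monocyte markers were also higher, 7 of 10, and summed to 8.60 to 16.3 CPM at 3 weeks and 79.2 to 570.1 CPM at 8 months. How far neutrophil or monocyte RNA enters the changes of genes that these cells share with microglia, such as those for cytokines, C3, Cd44 and the cell cycle, was not tested. At 8 months Hp, Cd24a, Gda and Pglyrp1, also expressed in myeloid cells of blood and marrow, were with Retnlg, Padi4, Ltf and Gpnmb the 8 genes with the largest excess over the WT age change, among those called, with no overlap of the SgshKO ages and with a mean of at least 5 CPM in at least 1 group.

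A list of rises among genes with a mean of at least 5 CPM at 3 weeks, chosen after the values had been seen, gave mostly other genes. Among the 12 were Hpse, C3, Lilrb4a, Axl, Lox, Cd300lf, C4b, Cst7, St14, Iqgap1 and Klk8. Lilrb4a, an inhibitory receptor, rose from 8.36, 5.28, 4.45 and 6.14 CPM to a median of 65.9 CPM, and Lox, lysyl oxidase, which crosslinks collagen, from 20.4, 13.7, 16.3 and 11.9 to 146 CPM. For neither gene did the ages overlap. Lilrb4a was not called in WT (0.02). Cd300lf, a lipid-binding inhibitory receptor, rose by 3.23 in SgshKO and by 3.55 in WT, and St14, a membrane serine protease, by 2.94 and 1.97, so both also rose in WT. Iqgap1, a cytoskeletal scaffold (2.83), and Klk8, a secreted protease (2.82), rose in SgshKO and were not called in WT.

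Cytosolic ribosomal protein genes rose modestly but together, 47 higher and 1 lower of 72 (65.3% against 15.6%), with a median of 0.65. In WT 1 (Rpl13) rose and 1 (Rplp0) fell. Rpl23 had 11.9, 16.2, 13.9 and 15.9 CPM at 3 weeks and 29.7 to 46.7 CPM at 8 months (log2 fold change 1.30 ± 0.14), Rpl30 rose by 1.49, Rps18 by 1.09 and Rpl13 by 2.04, while Rpl5 fell (-0.46), a call lost without 3-week replicate 3 (adjusted p = 0.0609). Replicate 1 at 3 weeks was the lowest for Rpl23, Rpl13, Rpl30 and Rps18, and 40 of the 72 genes were called higher without it. These genes have many processed pseudogenes that share their reads, so single values are uncertain.

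Immediate early and heat shock genes, which dissociation can induce, gave a change that 1 library decided. 10 of 30 fell and 1 rose (33.3% and 3.33%, against 15.1% and 15.6% of all genes), with a median of -0.46. Fos (chr12:85473890-85477274), the activator protein 1 subunit, had 4017, 479, 689.8 and 1607 CPM at 3 weeks and 411 to 909.5 CPM at 8 months. Replicates 1 and 4 at 3 weeks were high, while replicates 2 and 3 lay within the 8-month range. Without replicate 1 the list's median was 0.10, 2 genes were lower and 6 higher, and Fos no longer passed (log2 fold change -0.44 in place of -1.31, edgeR adjusted p = 0.255). The same held for Egr1 (adjusted p = 0.151), Atf3 (0.626) and Btg2 (0.185).

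Clock genes moved in both directions, 5 higher and 3 lower of 18 (27.8% and 16.7%, against 15.6% and 15.1% of all genes), whereas 8 rose and 0 fell in WT. Bhlhe40 (chr6:108660629-108666925), a repressor that acts in the clock and in macrophage activation, had 1.19, 0.666, 0.871 and 0.585 CPM at 3 weeks and 16.8 to 35.4 CPM at 8 months (median 27.1), a log2 fold change of 4.93 ± 0.29 (edgeR adjusted p = 7.05e-12). It was under 1 CPM in all WT libraries. Hlf, a PAR-domain output factor of the clock, fell in SgshKO (-1.68) and rose in WT (1.17), and so did Per3 (-0.43 and 0.80). The call of Per3 in SgshKO was lost without 3-week replicates 1 or 2 or 8-month replicates 1 or 3 (adjusted p up to 0.142). Times of collection are not in the labels. Of 19 Atf4 targets and amino acid genes 3 rose and 2 fell (15.8% and 10.5%).

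The largest called falls without overlap, among genes with a mean of at least 5 CPM at 3 weeks, included Alb, which encodes serum albumin, the haemoglobin genes of red cells and Igf2bp3. Alb had 22.1, 1.24, 1.45 and 27.2 CPM at 3 weeks and at most 0.699 CPM at 8 months. The haemoglobin genes Hbb-b1, Hbb-bs, Hba-a1 and Hba-a2 fell from 27.5 to 231 CPM (Hbb-b1) and 18.1 to 155 CPM (Hba-a1) to at most 20.2 and 15.1 CPM. They are near-identical pairs whose counts are almost equal, so each pair is in effect 1 measurement. In WT all 4 fell as well (-7.65 to -7.37), and no difference passed (lowest adjusted p = 0.0839). All 4 differences passed with no filter on low counts (adjusted p of 0.00425 to 0.00429), with the replicate block (0.0403 to 0.0414), without SgshKO 3-week replicate 3 (0.0341 to 0.0342) and without 8-month replicate 5 (0.0439 to 0.0497). Igf2bp3 (chr6:49085218-49214954), an RNA-binding protein of fetal tissue, had 21.1, 19.7, 19.6 and 22.4 CPM at 3 weeks and 0.330 to 2.34 CPM at 8 months (log2 fold change -3.98 ± 0.43, edgeR adjusted p = 1.48e-07). It also fell in WT (-2.07).

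Sema6d (chr2:124610296-124667789), a membrane semaphorin, went from 25.3, 24.01, 27.6 and 30.8 CPM to 0.831 to 3.10 CPM (log2 fold change -3.70 ± 0.28), and its age change minus that in WT was -2.52 (adjusted p = 2.18e-04). Lgi2 fell from 10.9 to 12.7 to 0 to 1.99 CPM, and so did Pnma2 (-3.13), Elavl4, a neuronal RNA-binding protein (-3.09), the endothelin receptor gene Ednrb (-2.90) and Cecr2 (-2.88), with no overlap of the ages. By the same limits, the largest shortfalls against WT were in Unc79, Efnb2, Il7r, Ccdc162, Hlf, Mycl, Sema6d and Eva1a. Efnb2 (chr8:8617439-8660773), the ephrin-B2 ligand, moved apart between the genotypes. It fell from 8.26, 3.76, 6.19 and 4.75 CPM to a median of 1.01 CPM in SgshKO and rose from 9.09 to 11.8 to 35.8 to 49.5 CPM in WT (difference -4.04, adjusted p = 2.69e-06). Unc79, a subunit of a sodium leak channel, and Ccdc162 fell in SgshKO (-4.33 and -2.87) with no called change in WT, and Eva1a, linked to autophagy, fell in SgshKO (-1.002) and rose in WT (1.41).

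Markers of other cell types changed in part. Of 9 border macrophage markers 4 were called higher (44.4% against 15.6% of all genes), among them F13a1, also listed here as a monocyte marker. Their sum ran from 84.1 to 111 CPM at 3 weeks and 66.2 to 109.9 CPM at 8 months. It is mostly Mrc1 (80.2 to 105 and 46.01 to 96.6 CPM, adjusted p = 0.0672). Mrc1 was called lower under some alternatives. These include SgshKO libraries alone (-0.46, edgeR adjusted p = 0.0236) and the 8-month libraries with Xist alone (-0.67, 0.0370). Of 4 endothelial genes Pecam1 fell, from 28.1, 28.3, 24.4 and 28.4 to 6.29 to 11.1 CPM, Cdh5, the cadherin of endothelial junctions, fell (-1.36), and Flt1, a receptor for vascular growth factors, rose (2.35). All 4 tested erythroid markers, each a haemoglobin gene, fell. Of 3 T and NK cell markers Klrd1 fell (-2.55), and the 1 tested B cell marker, Cd79b, fell (-0.57). Mbp, the myelin basic protein of oligodendrocytes, rose by 0.34 (39.97 to 48.2 and 47.6 to 61.5 CPM, overlapping), Cspg4, 1 of 5 oligodendrocyte precursor markers, rose (3.02), and 2 of 8 astrocyte markers, Gfap and Aldh1l1, rose. Neuron markers summed to under 5 CPM in all 11 libraries, with 0 of 5 called.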

How the data were processed

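RNA was sequenced from sorted forebrain microglia in 22 libraries of an age series, of which 11 enter the comparison. The authors deposited raw read counts per gene (HOMER 4.11, STAR 2.5.3a and the build mm10 are among the names in the submitters' processing notes, with no role given) and a table of TPM values, used only as an alternative. Totals per library ran from 10648847 to 27106584 counts. The members, gene lists and alternatives were chosen with earlier results of these data known, and the lists support nothing by their choice.

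Counts were fitted in edgeR 4.0.16 (R 4.3.3) with filterByExpr (minimum count 10), TMM factors and a quasi-likelihood model with 1 coefficient per group over all 6 groups of age and genotype. Contrasts were 8 months against 3 weeks in SgshKO, the same in WT, and their difference. Benjamini-Hochberg adjustment ran over all 14309 tested genes, of which the 470 on chromosomes X and Y were then left out. An SE is the absolute log2 fold change over the root of its F statistic. CPM use TMM-scaled totals. The fit was tested on simulated counts. TPM were tested in limma 3.58.1 on log2(TPM + 1) and log2(TPM + 0.1), and DESeq2 1.42.0 was a further alternative.

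Genes were named by rule: the 12 largest called rises and falls without overlap and with a mean of at least 5 CPM, the 8 largest differences from WT in each direction, and up to 4 called members of each list with up to 2 called against its majority, besides Sgsh, Hpse, Mitf, Tfeb, Tfec, Flcn and the most abundant markers of other cell types. Others were chosen after their values were seen, and some genes that the rule selects are not reported here. No replicates were duplicates. Ratios for genes with 1 to 3 counts at 3 weeks carry exact 95% intervals, and a count of 0 was set to a floor of 3 counts over the group.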

Additional observations from a re-analysis of the deposited data

Results flagged for a closer look

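Some values were set apart from the other libraries of their group, with a gap to the nearest library above Dixon's 95% critical value. In a test of this kind chance alone sets apart about 1 in 20 groups. Replicate 3 at 8 months, the library with most neutrophil transcripts, was high for Cd44 (48.8 CPM), C3 (187 CPM), Mmp8 (54.4 CPM), Mmp9 (97.9 CPM), Padi4 (26.7 CPM) and S100a9 (1301 CPM), and apart for the summed glycosaminoglycan breakdown genes (15089 CPM). The part of neutrophil transcripts in Cd44 and C3 was not tested. Replicate 2 at 8 months was high for C4b (643 CPM), Gas6 (248 CPM) and Msr1 (10.9 CPM) and low for H2-Aa (21.8 CPM). Replicate 1 at 8 months was high for Gpnmb (40.1 CPM), Etv4 (22.97 CPM) and Ifi27l2a (33.9 CPM). At the same age replicate 4 was high for Hlf (7.85 CPM) and for Hbb-b1 and Hbb-bs (20.2 CPM each) and low for summed oligodendrocyte precursor markers (2.89 CPM). Replicate 5 was low for Cd63 (188 CPM), replicate 6 high for Rptor (252 CPM), and replicate 7 low for Irgm2 (61.2 CPM) and high for Unc79 and Hs3st2 (0.452 CPM each).

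At 3 weeks replicate 1 was high for Gpnmb (4.84 CPM), Tnf (14.8 CPM) and summed oligodendrocyte precursor markers (5.03 CPM). Replicate 2 held the only count of Padi4 (0.0475 CPM). Replicate 3 was apart for Lrp1 (4455 CPM), Gabarapl1 (24.8 CPM), Pecam1 (24.4 CPM), Mmp9 (0.290 CPM) and Mcoln3 (0.194 CPM). Replicate 4 was high for the neutrophil genes Lcn2 (2.05 CPM) and Cd177 (0.731 CPM).

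Other genes named above were set apart because their age change differed between SgshKO and WT in edgeR's test of that difference. The values are the SgshKO log2 fold change minus that in WT, and a value above 5 mostly belongs to a gene with few or no counts in at least 1 group, where it depends on the prior count and is no bound. The largest were Retnlg 14.17, Padi4 13.22, Hp 10.16, Cd24a 9.52, Ltf 8.86, Atp6v0d2 8.80, Gda 8.40, Pglyrp1 8.00, Gpnmb 7.73, Hpse 7.29, Mamdc2 7.02, Colec12 6.48, Gpc1 6.41, C2 5.97, Cxcl14 5.89, C3 5.87, Bhlhe40 5.66, Spp1 5.53 and H2-Aa 5.01. Next came Lox 4.79, Acp5 4.74, Ciita 4.71, H2-Eb1 4.71, Cd44 4.65, Clec7a 4.27, Dgat2 4.22, Ube2c 4.107, Bub1 3.90, Axl 3.86, Cst7 3.84, Ch25h 3.83, Lpl 3.74, Fabp5 3.47, Lilrb4a 3.45, E2f8 3.43, Xylt1 3.14, Ifi27l2a 3.06, Mki67 3.05, Top2a 3.00, Itgax 2.90, H2-Q7 2.88, Ifitm3 2.75, Ifi207 2.69 and Cd74 2.66. Smaller positive differences were Ifi204 2.54, H2-Ab1 2.43, Rragd 2.40, Klk8 2.18, Etv4 2.07, Apoe 2.01, Iqgap1 1.94, Msr1 1.82, Irgm2 1.59, Sulf2 1.32, H2-D1 1.32, Fth1 1.30, Mrc1 1.25, Rps18 1.25, Rpl23 1.06, St14 0.97, Glb1 0.97, Cd63 0.95, H2-K1 0.84, Ctsh 0.82, Ftl1 0.81, Ctss 0.75, B2m 0.73, Ctsz 0.72, Gabarapl1 0.67 and Cd180 0.60. The lower age changes in SgshKO were Unc79 -4.05, Efnb2 -4.04, Il7r -3.44, Ccdc162 -2.93, Hlf -2.85, Mycl -2.66, Sema6d -2.52, Eva1a -2.41, Ednrb -2.23, Egr1 -2.03, Fos -1.91, Crybb1 -1.76, Pecam1 -1.32, Per3 -1.23, Atp6v0a2 -0.97, Tmem119 -0.58, Csf1r -0.48, Flcn -0.46, Cx3cr1 -0.43, Rptor -0.40 and Siglech -0.38. Of these 91 differences, 22 lost the call without at least 1 single library, namely Flcn, Siglech, Etv4, Rptor, Ch25h, Fabp5, Ifi207, Cxcl14, Ube2c, E2f8, Rps18, Egr1, Fos, Retnlg, Padi4, Ltf, Hp, Pglyrp1, St14, Gpc1, Msr1 and Cd180. Without SgshKO 3-week replicate 1 the difference was -1.12 (adjusted p = 0.0839) for Egr1 and -1.04 (adjusted p = 0.121) for Fos. Without WT 3-week replicate 3 that of Cxcl14 was 2.74 (adjusted p = 0.9504), and its call was lost in 10 of the fits that leave out 1 library. Without WT 8-month replicate 2 the differences of Colec12 and Ch25h grew to 10.06 (adjusted p = 6.09e-05) and 5.80 (adjusted p = 2.89e-04). No other of the 91 moved by over 1.5 times when 1 library was left out. In WT all libraries at 3 weeks had Xist and all at 8 months had Ddx3y, so these differences cannot be told apart from that split.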

How the results depend on the processing

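The count of genes changed with age in SgshKO (4244) ran from 3372, with the Ddx3y minus Xist balance as a covariate, to 4408, with DESeq2, and from 3426 (without 3-week replicate 1) to 4522 (without WT 8-month replicate 4) when 1 library was left out. With RLE factors in place of TMM it was 4214, with no filter on low counts 4110, and among the 8-month libraries with Xist alone, an alternative chosen after seeing the data, 3679. Without the 2 libraries richest in neutrophil transcripts, also chosen after seeing the data, it was 3459. The WT count (1042) fell to 451 with the covariate and ran from 634 to 1231 when 1 library was left out, and the count of differing age changes (1284) ran from 896 to 1441. A fit with replicate numbers as a block gave 3569 genes in SgshKO, 803 in WT and 1008 for the difference. The numbers did not pair the samples, since same-numbered libraries had correlations of -0.056 to 0.058 and no 3-week library correlated best with its own number.

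Median log2 fold changes of lists moved as follows. With the covariate the DAM median was 1.65 and that of chemokines 1.364. With TPM and a pseudocount of 1 the medians were 0.11 for hydrolases, -0.080 for lysosomal membrane genes, 0.34 for lipid genes, 0.88 for interferon genes, 1.003 for chemokines and 0.92 for the cell cycle, and with a pseudocount of 0.1 they were 0.11 for hydrolases, -0.081 for membrane genes and 0.35 for lipid genes. With 3-week and 8-month groups alone heparan sulfate synthesis was at 0.037, and with SgshKO libraries alone at 0.048, with the clock at 0.27. Among the 8-month libraries with Xist the medians were 1.72 for DAM, 0.24 for hydrolases, 1.35 for MHC and 1.42 for chemokines, and without the 2 neutrophil-rich libraries chemokines were at 1.04. When 1 library was left out, the ranges were 1.07 to 1.31 for chemokines, -0.60 to 0.10 for immediate early genes and -0.12 to 0.034 for heparan sulfate synthesis. The signs of the membrane and heparan sulfate synthesis medians, both near 0, therefore depend on the setting. The cause of these moves was not tested. Of 8655 values of single genes under alternatives, 8316 kept their direction and side of the threshold, 204 lost the call, 135 gained it, and 0 reversed after being called. Depth limits genes with few counts at 3 weeks. Ratios and bounds given for them cover counting error only, and fitted differences given for such genes depend on the prior count.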
